A study of Mus musculus with 5 samples.

Results

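The TNF superfamily was examined in CD11b+Gr1+ cells, a myeloid gate, taken by flow sorting from the lungs of mice. It is a family of trimeric, mostly membrane-bound ligands and of the cysteine-rich receptors that bind them. Members were all genes whose platform symbol begins with Tnfsf or Tnfrsf, together with 12 family members listed by name. The array held a probe set with a single gene symbol for 36 of them, 15 ligands and 21 receptors, out of 14807 genes in all. Of the 12 listed by name, Ltbr and Cd27 are not analysed here, and Tnfsf12, Tnfsf13, Tnfrsf13c, Tnfrsf22 and Tnfrsf23 share their probe sets with other genes and were not counted.

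Both groups were wild-type mice. The tumour-challenged mice (2 arrays) had been given 5000000 LLC-RFP cells, a Lewis lung carcinoma line of the mouse carrying a red fluorescent protein, under the skin 9 days before, and the control mice (3 arrays) had received no tumour cells. About 100000 CD11b+Gr1+ cells were sorted per sample, a gate that takes in both granulocytes and inflammatory monocytes, and their RNA was amplified before hybridisation. The labels do not say whether each array stands for 1 mouse or a pool, so the p-values measure only the spread between these samples.

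Ligands of this family act on neighbouring cells or, after shedding, at a distance. Some receptors with a death domain can start apoptosis through Fadd and caspase 8, and many of the others bind TRAF adaptors and switch on NF-kB. Myeloid cells are a major source of Tnf and of the B-cell survival factor encoded by Tnfsf13b, while many of the other pairs, such as Cd40lg with Cd40 or Tnfsf9 with Tnfrsf9, carry co-stimulatory signals between antigen-presenting cells and lymphocytes.

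Several ligands and receptors of the family are known to respond to interferons. The promoters of the members were therefore searched for the core of the interferon-stimulated response element (GAAA, any 2 bases, then GAAA) on both strands, from 250 bases before to 50 bases after each start site in RefSeq (GRCm38.p6). Of the 36 members 28 had a promoter there, 32 promoters in all. The motif occurred in 4 of the 32, and in 3.44% of all 32851 promoters of the same length. The 4 matches are shown in 60 bases of each promoter, 5′ to 3′ on the gene's strand, with the match in capitals.
Tnfsf13b, chr8:10006592-10006651, plus strand: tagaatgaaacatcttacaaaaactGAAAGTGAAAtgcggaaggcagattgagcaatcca
Tnfrsf1b, chr4:145246846-145246905, minus strand: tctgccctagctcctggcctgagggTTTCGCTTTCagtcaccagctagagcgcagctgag
Tnfrsf14, chr4:154928107-154928166, minus strand: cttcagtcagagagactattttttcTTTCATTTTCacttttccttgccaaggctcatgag
Tnfrsf17, chr16:11313683-11313742, plus strand: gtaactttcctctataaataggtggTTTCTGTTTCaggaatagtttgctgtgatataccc

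Only in Tnfsf13b did the gene's own strand read as the motif, and in the other 3 promoters it lay on the opposite strand. A match is a run of letters, not a measured site. The NF-kB-like pattern (GGG, any 5 bases, then CC), which can overlap its own reverse complement, was present in 19 of the 32 promoters and in 50.8% of all promoters. The STAT-like pattern (TTC, any 3 bases, then GAA), whose 2 strands read alike in the fixed letters, was present in 9 of the 32 and in 8.3% of all.

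The values are log2 RMA expression values, so a difference of 1 is a 2-fold change. No detection call came with them. A background level of 6.91 was therefore set at the 95th percentile of 843 probe sets of odorant, taste and pheromone receptors. Probe sets differ in how brightly they hybridise, so levels were compared between groups for the same gene and not between genes. Genes that mark the sorted cells lay above this level on every array. Itgam, the gene of CD11b, ran from 10.60 to 11.11, and S100a9, a neutrophil and monocyte calcium-binding protein, from 12.55 to 12.84. Upper quartiles still differed between arrays, with the lowest, 7.90, in control replicate 3 and the highest, 8.23, in tumour-challenged replicate 1. The lowest value of the 5 arrays was that of control replicate 3 for 37% of all genes, and the highest was that of tumour-challenged replicate 1 for 36.8%.

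No member of the family differed between the groups by the test, and none differed by 2-fold. Of the ligands, the largest difference among those above background was that of Ltb, at 0.839 of the control level, and of the receptors that of Tnfrsf21, at 1.30 times it. Neither exceeded what the spread between arrays allows (limma with Benjamini-Hochberg adjustment over 16661 probe sets: adjusted p = 0.816 and 0.843). Over all probe sets 0 were called higher and 0 lower, so the percentage called was 0 in each direction. At an unadjusted p under 0.05 limma gave 597 probe sets higher (3.58%) and 493 lower (2.96%), among them 2 members, both lower and both below background. By the 2-fold rule of the design text 0 of 36 members differed in either direction, where 0.149% of all genes were higher and 0.0945% lower. The 95% intervals of the differences lay wholly within 2-fold for 32 of the 36 members. The exceptions were Tnfsf18, Cd40lg, Tnfsf9 and Tnfrsf21. Of the 36 members 18 lay below background in both groups. Their intervals are limited by signal and do not show that a 2-fold change was absent.

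**Figure D1:**
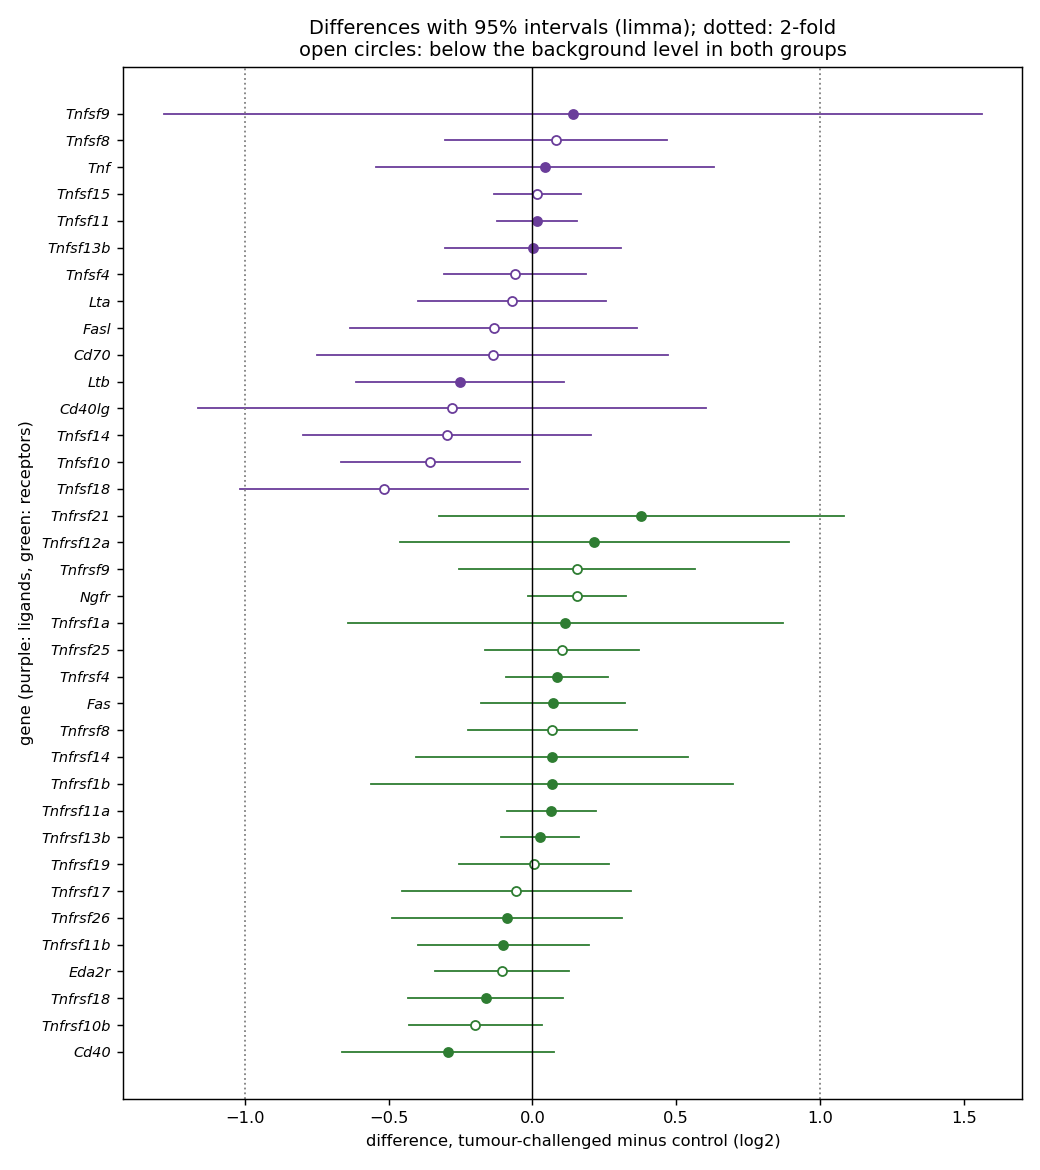
Difference of group means, tumour-challenged minus control, on the log2 scale (x axis) for each of the 36 members (y axis), with its 95% interval from limma. Filled circles are the 18 members above the background level in at least 1 group, and the dotted lines at -1 and 1 mark 2-fold. No circle lies beyond 2-fold, and the intervals of 34 members cross 0.

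Most ligands lay at or below background. Only 5 of the 15, Tnf, Ltb, Tnfsf13b, Tnfsf11 and Tnfsf9, lay above background in at least 1 group, whereas 13 of the 21 receptors and 51.3% of all genes did. The median difference was -0.07 over the 15 ligands and 0.07 over the 21 receptors, against 0.03 over all genes. The first 2 medians changed with single arrays: that of the ligands was -0.19 when tumour-challenged replicate 1 was left out and 0.0018 when the other was, and that of the receptors was 0.00 without tumour-challenged replicate 1 and -0.0055 without control replicate 3. The 2 groups of arrays did not overlap for 3 ligands and 2 receptors that were lower (7.52% of all genes) and for 0 ligands and 2 receptors that were higher (11.3% of all genes). Differences smaller than 0.1 were found for 17 of the 36 members and for 50.1% of all genes. When only genes above background in at least 1 group were taken, the median difference was 0.0153 over 5 ligands, of which 4 were positive. It was 0.0684 over 13 receptors and 0.0750 over all genes of that kind. With the deposited values the negative median of the 15 ligands was thus not seen among the ligands above background. That depended on the processing and on single arrays. For Ltb, Tnfsf13b, Tnfsf11, Tnf and Tnfsf9 quantile normalization gave -0.33, -0.08, -0.05, -0.05 and 0.01. Without tumour-challenged replicate 1 their differences were -0.29, -0.16, 0.02, -0.19 and -0.68. Without tumour-challenged replicate 2 they were -0.21, 0.17, 0.01, 0.28 and 0.96. The receptor median was close to that of all genes above background.

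**Figure D2:**
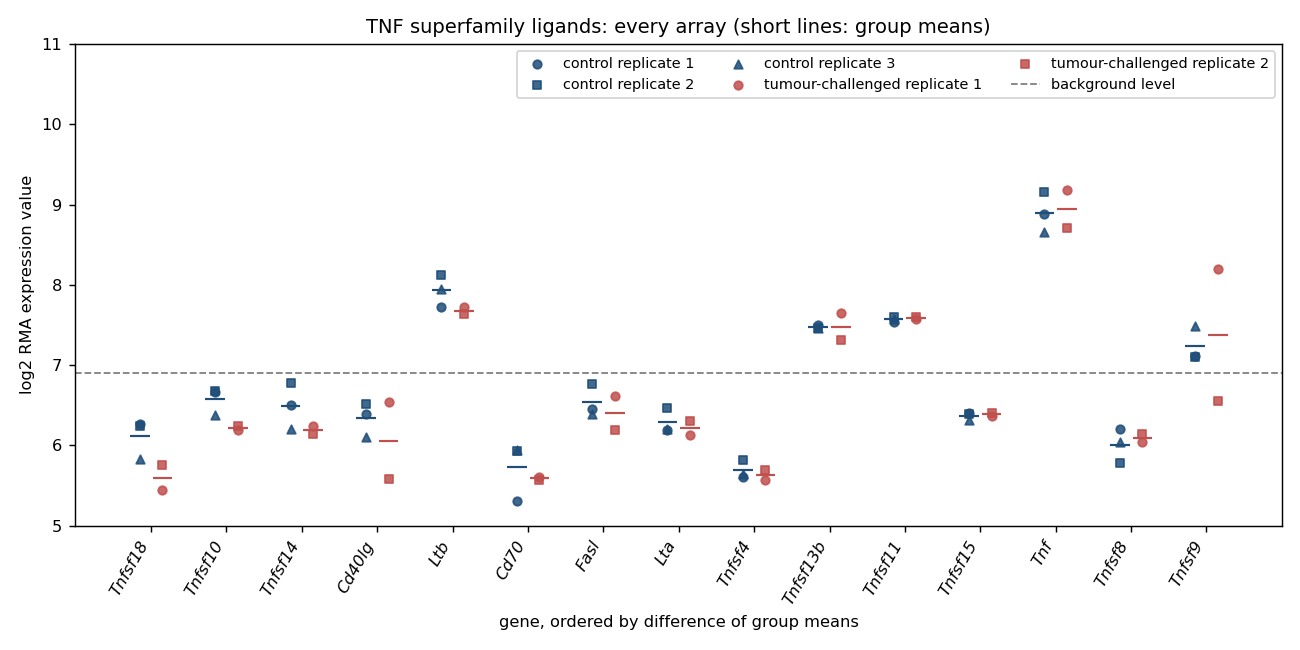
Log2 RMA expression value (y axis) of the 15 ligands (x axis, ordered by difference) on each of the 5 arrays, with controls in blue and tumour-challenged arrays in red. Short lines are group means and the dashed line is the background level of 6.91. Only 5 ligands have a group mean above that line, and the tumour-challenged arrays of Tnfsf9 stand furthest apart.

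Tnf encodes the founding ligand of the family, the inflammatory cytokine that signals through Tnfrsf1a and Tnfrsf1b. Its values were 8.88, 9.16 and 8.65 in control replicates 1 to 3 and 9.18 and 8.71 in tumour-challenged replicates 1 and 2. The tumour-challenged values lay on both sides of the control mean. The difference was 0.05 ± 0.22 (SE), with a 95% interval from -0.54 to 0.63, and differences within that interval cannot be told from 0.

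Ltb encodes lymphotoxin beta, which anchors lymphotoxin alpha at the cell surface and is made mainly by lymphocytes. The control arrays were at 7.73, 8.13 and 7.94 and the tumour-challenged arrays at 7.72 and 7.64. Both tumour-challenged values lay below every control, but by a gap of only 0.0087. The group means were 7.93 ± 0.20 (SD, n = 3) and 7.68 ± 0.06 (SD, n = 2), a difference of -0.25 ± 0.13 (SE; limma, adjusted p = 0.816), or -0.16 without control replicate 2. Its partner Lta was below background on every array, at 6.19, 6.47 and 6.20 in controls and at 6.13 and 6.31 after tumour challenge.

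Markers of other cell types were measured in the same samples, lymphocytes first. Over all 14807 genes 6173 had a negative difference and 58.3% a positive one. Of 12 measured B-cell genes all 12 had a negative difference with a median of -0.58, and 9 had separate groups, where 7.52% of all genes did in that direction. Their summed linear signal ran from 2323 to 2873 in controls and from 1814 to 1838 after tumour challenge, and only Vpreb3 lay below background in both groups. Of 15 measured T and NK genes 9 were positive and 6 negative, with a median of 0.02. The groups were separate for 2 that were higher (11.3% of all genes) and 2 that were lower (7.52%). Their summed signals were 3009 to 3252 and 2871 to 3171, and Cd4, Cd8a, Zap70 and Ncr1 lay below background. Other cells that the lung sort may hold were measured as well. Lung epithelial genes had a positive difference for 13 of 15, with separate groups for 4 (11.3% of all genes) and a median of 0.28. Their summed signal was 5608 to 10313 in controls and 9122 to 9726 after tumour challenge, and only Foxj1 lay below background in both groups. Of 12 alveolar macrophage genes, each above background in at least 1 group, 8 had a negative difference, 6 of them with separate groups (7.52% of all genes), with a median of -0.12 and sums of 8995 to 9845 and 7933 to 10490. Of 10 eosinophil, basophil and mast cell genes 7 had a negative difference, with a median of -0.08 and a range from -1.48 to 0.98. The groups were separate for 4 that were lower (7.52% of all genes) and 2 that were higher (11.3%). Epx, Il5ra, Cpa3, Fcer1a, Ms4a2 and Gata2 lay below background in both groups. Median differences were -0.06 over 12 endothelial genes and -0.02 over 10 fibroblast genes. The part of these cells and of B cells in the members' values was not tested. Fewer cells of a type and less RNA per cell cannot be told apart in such samples.

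Tnfsf13b encodes BAFF, the B-cell survival factor that myeloid cells release. The control arrays were at 7.50, 7.46 and 7.46, and the tumour-challenged arrays at 7.64 and 7.31. The latter enclosed the controls, and the difference was 0.00 ± 0.11 (SE), with an interval from -0.30 to 0.31. This is the member whose promoter reads GAAAGTGAAA just before its start site.

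Tnfsf11 encodes RANKL, the ligand that drives osteoclast formation. It was at 7.54, 7.60 and 7.57 in controls and at 7.58 and 7.60 after tumour challenge. All 5 arrays lay close together, and the difference was 0.02 ± 0.05 (SE).

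Tnfsf9 encodes the co-stimulatory ligand of Tnfrsf9. Its control values were 7.11, 7.10 and 7.49, and its tumour-challenged values were 8.20 and 6.55. The tumour-challenged arrays lay 1 above and 1 below all controls, with an SD of 1.16 (n = 2) against 0.22 (n = 3) in controls. The difference was 0.14 ± 0.53 (SE). It was -0.68 when tumour-challenged replicate 1 was left out and 0.96 when the other was.

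The other 10 ligands had means below background in both groups, so their differences are between values at or near background. With the level set at the 90th percentile instead, 6.49, the control means of Tnfsf10 (6.57) and Fasl (6.54) lay above it. Their tumour-challenged means, 6.22 and 6.40, did not. Tnfsf10, which encodes the apoptosis ligand TRAIL, known to be induced by interferons, was at 6.67, 6.67 and 6.38 in controls and at 6.20 and 6.24 after tumour challenge. Both tumour-challenged arrays lay lower, with a difference of -0.35 ± 0.12 (SE; unadjusted p = 0.0332 and adjusted p = 0.717 by limma). In the same arrays all 15 measured interferon-stimulated genes had a negative difference, with a median of -0.52, and for 14 the groups did not overlap. Over all genes 6173 of 14807 had a negative difference, and 7.52% were lower without overlap. No match to the interferon element was found in the 300-base promoter of Tnfsf10. Whether the Tnfsf10 values go with those genes was not tested. Tnfsf18, the ligand of the T-cell receptor family member GITR, was at 6.27, 6.24 and 5.83 and at 5.44 and 5.75, a difference of -0.52 ± 0.19 (SE; adjusted p = 0.750 by limma).

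Tnfsf14 encodes LIGHT, which binds the lymphotoxin beta receptor and Tnfrsf14. It was at 6.50, 6.77 and 6.20 in controls and at 6.24 and 6.15 after tumour challenge, and the groups overlapped. Fasl, the Fas ligand of cytotoxic lymphocytes, was at 6.46, 6.76 and 6.39 and at 6.62 and 6.19, overlapping too. The remaining ligands below background were Lta, Cd40lg, Cd70, Tnfsf4, Tnfsf8 and Tnfsf15, with overlapping groups and differences from -0.28 for Cd40lg to 0.08 for Tnfsf8. The tumour-challenged values of Cd40lg, 6.54 and 5.58, were again far apart.

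Among the receptors, those for Tnf were well above background in both groups. Tnfrsf1a, the broadly expressed death-domain receptor of Tnf, was at 9.50, 9.42 and 8.74 in controls and at 9.50 and 9.17 after tumour challenge. Control replicate 3 was the lowest array, and the tumour-challenged values lay level with the other controls or between them and it. The difference was 0.12 ± 0.28 (SE), and -0.12 without control replicate 3. Tnfrsf1b, the second Tnf receptor, which lacks a death domain and is prominent on leukocytes, was at 10.38, 10.18 and 9.74 and at 10.35 and 10.00. Control replicate 3 was again the lowest, with a difference of 0.07 ± 0.23 (SE), or -0.11 without control replicate 3.

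**Figure D3:**
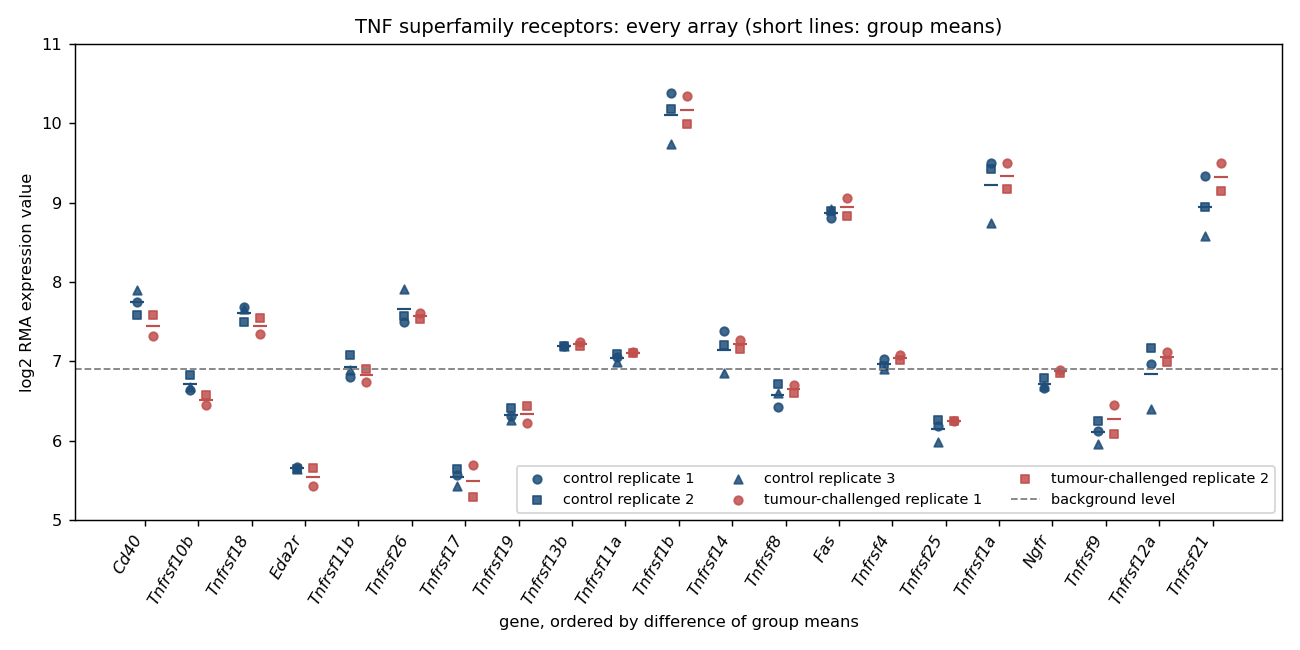
Log2 RMA expression value (y axis) of the 21 receptors (x axis, ordered by difference) on each of the 5 arrays, with controls in blue and tumour-challenged arrays in red. Short lines are group means and the dashed line is the background level of 6.91. Control replicate 3 (triangles) is the lowest array for Tnfrsf1b, Tnfrsf1a, Tnfrsf12a and Tnfrsf21.

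The other death-domain receptors did not pass the test either. Fas, the apoptosis receptor of Fasl, was at 8.81, 8.90 and 8.91 in controls and at 9.06 and 8.83 after tumour challenge, an overlap of the groups with a difference of 0.07 ± 0.09 (SE) and an interval from -0.18 to 0.32. Tnfrsf21, which encodes death receptor 6, was at 9.33, 8.94 and 8.58 and at 9.51 and 9.15. Its group means were 8.95 ± 0.38 (SD, n = 3) and 9.33 ± 0.25 (SD, n = 2). This was the largest positive difference among the 36 members, 0.38 ± 0.26 (SE; limma, adjusted p = 0.843), yet control replicate 1 exceeded tumour-challenged replicate 2. It was 0.19 without control replicate 3, 0.20 without tumour-challenged replicate 1 and 0.57 without control replicate 1. Tnfrsf10b, the TRAIL receptor of the mouse, had means below background, with 6.64, 6.82 and 6.68 in controls and 6.45 and 6.58 after tumour challenge. Both tumour-challenged arrays were lower, by a gap of 0.06, with a difference of -0.20 ± 0.09 (SE). Tnfrsf25 and Ngfr, which also carry death domains, lay below background in both groups. The arrays of Ngfr did not overlap and its difference was 0.16 ± 0.06 (SE).

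Cd40, the receptor through which T cells license antigen-presenting cells and help B cells, had the largest negative difference of the receptors. It was at 7.75, 7.58 and 7.90 in controls and at 7.32 and 7.58 after tumour challenge. The groups were separated by only 0.0003, between control replicate 2 and tumour-challenged replicate 2. The means were 7.74 ± 0.16 (SD, n = 3) and 7.45 ± 0.19 (SD, n = 2), a difference of -0.29 ± 0.14 (SE; limma, adjusted p = 0.800). It was -0.16 without tumour-challenged replicate 1. The B-cell genes given after Ltb were lower on the same arrays. Of 13 measured dendritic cell genes 8 had a negative and 5 a positive difference, with a median of -0.11. The differences ran from -1.17 to 1.27, with 1 gene past 2-fold lower (0.0945% of all genes) and 1 higher (0.149%). The groups did not overlap for 3 that were lower (7.52% of all genes) and 1 that was higher (11.3%). Zbtb46, Xcr1 and Itgae lay below background in both groups. The part of either cell type in the Cd40 values was not tested.

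The receptors of BAFF are carried by B cells and plasma cells. Tnfrsf13b, which encodes TACI, was at 7.19 on all 3 control arrays and on tumour-challenged replicate 2, and at 7.24 on tumour-challenged replicate 1. The values of 4 arrays were exactly equal in the deposited table, as happened for at least 2 arrays in 3 other members (Tnfsf13b, Eda2r and Tnfrsf8) and in 19.6% of all probe sets. A spread of 0 of this kind says nothing about the mice. Tnfrsf17, the plasma cell receptor BCMA, lay below background, between 5.29 and 5.69.

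Of the co-stimulatory receptors of T cells, Tnfrsf18, Tnfrsf4 and Tnfrsf14 lay above background. Tnfrsf18, which encodes GITR, was at 7.68, 7.49 and 7.66 in controls and at 7.35 and 7.54 after tumour challenge. The groups overlapped and the difference was -0.16 ± 0.10 (SE), or -0.06 without tumour-challenged replicate 1. Tnfrsf4, which encodes OX40, was at 7.03, 6.94 and 6.91 and at 7.08 and 7.01, with a difference of 0.09 ± 0.07 (SE). Tnfrsf14, which binds LIGHT, differed by 0.07 ± 0.18 (SE), and Tnfrsf8 and Tnfrsf9 lay below background in both groups.

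Receptors of tissue repair and bone were among the rest. Tnfrsf12a, the receptor of the TWEAK ligand encoded by Tnfsf12, was at 6.96, 7.16 and 6.40 in controls and at 7.12 and 7.00 after tumour challenge. Control replicate 3 alone stood low, and the difference of 0.21 ± 0.25 (SE) became -0.0055 without it. Tnfrsf11a, which encodes RANK, differed by 0.07 ± 0.06 (SE), with both tumour-challenged arrays above the controls by a gap of 0.01. Its decoy Tnfrsf11b, osteoprotegerin, was at 6.81, 7.08 and 6.89 and at 6.74 and 6.91, values on both sides of the background level. Tnfrsf26 was at 7.49, 7.58 and 7.92 and at 7.61 and 7.53, with overlapping groups. Eda2r and Tnfrsf19 lay below background with differences of -0.11 and 0.01.

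**Figure D4:**
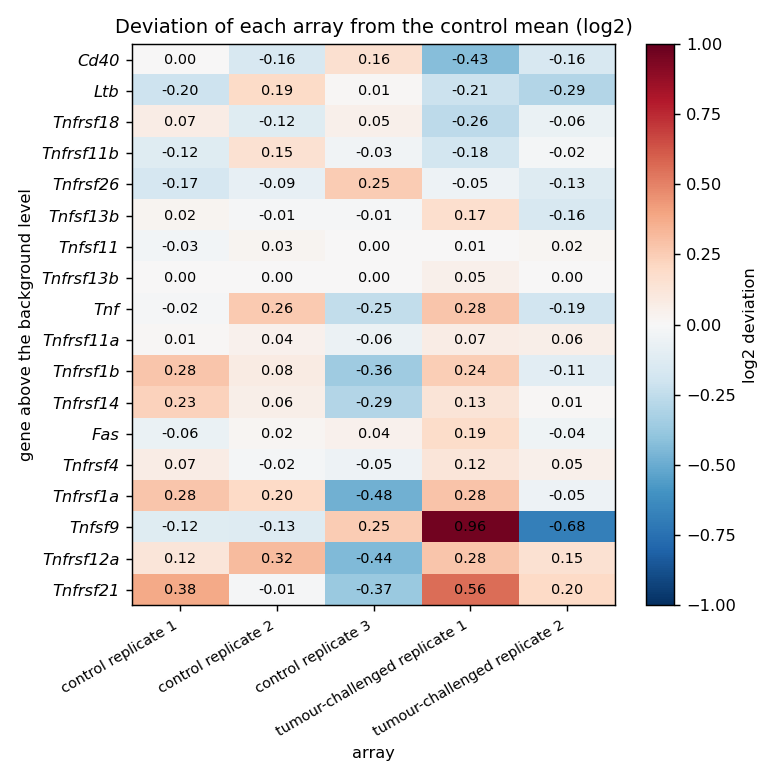
Deviation of each array (x axis) from the gene's control mean, on the log2 scale, for the 18 members above background in at least 1 group (y axis, ordered by difference). Red is above and blue below the control mean. The strongest colours are the 2 tumour-challenged arrays of Tnfsf9, at 0.96 and -0.68, and control replicate 3 is blue for both Tnf receptors, Tnfrsf12a and Tnfrsf21.

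The lowest and the highest array of each member were counted beside those of all genes. Control replicate 3 was the lowest array for 9 of the 21 receptors (42.9%, against 37% of all genes) and for 2 of the 15 ligands. Tumour-challenged replicate 1 was the highest for 9 of the 21 receptors (42.9%, against 36.8% of all genes) and for 4 of the 15 ligands, while control replicate 2 was the highest for 7 ligands. Control replicate 3 and tumour-challenged replicate 1 are the arrays with the lowest and the highest upper quartile. Other members had another order. Tumour-challenged replicate 1 was also the lowest array for 6 receptors (28.6%, against 19.2% of all genes), and tumour-challenged replicate 2 was the lowest for 6 ligands (40%, against 23.2%). The part of this in the receptor differences was not tested.

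Genes that carry the signal from these receptors were measured from 3 lists. Of 30 measured adaptors, kinases and ubiquitin-handling genes 0 passed the test. Their median difference was 0.04. The groups did not overlap for 4 that were higher and 3 that were lower, beside 11.3% and 7.52% of all genes. Traf1, an adaptor that NF-kB induces and that binds Tnfrsf1b, Cd40 and Tnfrsf9 complexes, was at 8.24, 8.21 and 8.24 in controls and at 7.70 and 7.63 after tumour challenge. Both tumour-challenged arrays lay well below all controls, at 0.678 of the control level. The difference was -0.56 ± 0.05 (SE), with an unadjusted p of 0.000291 and an adjusted p of 0.517 by limma, and it lay between -0.59 and -0.53 when any 1 array was left out. Birc3, an inhibitor of apoptosis in the Tnf receptor complex, differed by -0.31 ± 0.13 (SE), with lower values on both tumour-challenged arrays, but by -0.47 without tumour-challenged replicate 1 and -0.15 without the other. Map3k7, the kinase TAK1, differed by 0.46 ± 0.20 (SE), or 0.30 without control replicate 3. Otulin, which removes linear ubiquitin chains, differed by 0.34 ± 0.23 (SE), or 0.16 without control replicate 3 and 0.17 without tumour-challenged replicate 1.

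Of 10 measured NF-kB subunits, inhibitors and kinases 0 passed the test, 7 had a positive difference and the median was 0.10. The difference was positive for 58.3% of all genes and for 66.5% of those above background in at least 1 group. The medians of these 2 sets were 0.03 and 0.0750. The groups did not overlap for 1 gene of the list that was higher (11.3% of all genes) and 1 that was lower (7.52%). Rel, the subunit c-Rel, was at 11.87, 11.61 and 11.91 in controls and at 11.33 and 11.17 after tumour challenge. The groups were separate, at 0.684 of the control level, with a difference of -0.55 ± 0.12 (SE; unadjusted p = 0.00867 and adjusted p = 0.620 by limma). Ikbkb, a kinase of the inhibitor complex, differed by 0.36 ± 0.24 (SE), Bcl3, an atypical inhibitor protein, by 0.25 ± 0.12 and Nfkbia, the classical inhibitor, by 0.17 ± 0.14. When tumour-challenged replicate 1 was left out these were 0.19, 0.10 and 0.0324, and without control replicate 3 those of Ikbkb and Nfkbia were 0.19 and 0.09. Those of Bcl3 and Nfkbia were 0.41 and 0.31 without tumour-challenged replicate 2. Of 7 measured genes for shedding and for family members outside the naming rule 0 passed. Relt, a receptor of the family, differed by 0.36 ± 0.23 (SE), the protease Adam10 by 0.27 ± 0.22, and Rhbdf2, needed for maturation of the protease that sheds Tnf, by 0.10 ± 0.20. With 1 array left out they ran from 0.14 to 0.59 for Relt, 0.10 to 0.45 for Adam10 and -0.06 to 0.24 for Rhbdf2, lowest without tumour-challenged replicate 1 for the first 2 and without control replicate 3 for Rhbdf2.

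**Figure D5:**
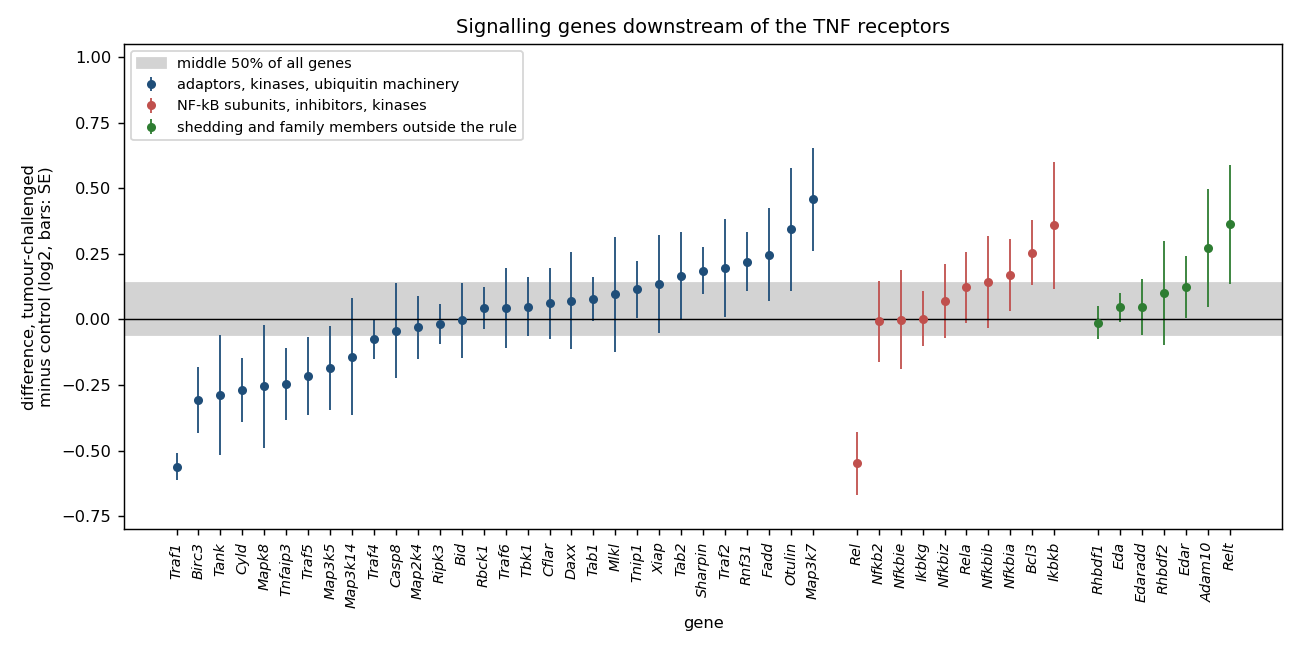
Difference of group means, tumour-challenged minus control, on the log2 scale with its SE (y axis) for 47 signalling genes (x axis) in 3 lists. The grey band holds the middle 50% of all genes, from -0.06 to 0.14, and Traf1 and Rel stand lowest, at -0.56 and -0.55.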

How the data were processed

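RNA of CD11b+Gr1+ lung cells was measured on 1 array per sample, 3 control and 2 tumour-challenged. The deposited values are log2 expression values made by the authors with RMA, per the submitters' processing notes, which give no version. RMA corrects background, quantile-normalizes and summarises probes. The number of arrays limits precision. Any filter the authors applied is not given in the sources used here. No batch is given in the labels.

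Of 16661 probe sets 14939 had 1 gene symbol in the platform annotation, 989 several and 733 none. Symbols were updated by gene number for 14884. A gene was represented by its brightest probe set, and every member had only 1. Groups came from the sample titles. Differences were tested with limma 3.58.1 in R 4.3.3 (3 residual and 1.36 prior degrees of freedom, two-sided, Benjamini-Hochberg adjustment over all probe sets, threshold 0.05), and the fit was tested on simulated data. Marker lists were summed as linear signal.

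The members and lists were chosen with earlier results of these data known. Every array's value was given for the 6 ligands and 8 receptors with the largest difference among those above background (5 ligands qualified) and for 16 family members chosen by name, of which Tnfsf13, Ltbr and Tnfrsf13c had no single-symbol probe set. Up to 4 genes per signalling list were named by the same measure. Cd40lg, Tnfsf18, Ngfr, Tnfrsf14 and Tnfrsf11a were given values after these were seen. Alternatives covered array scaling, dim probe sets, the variance model, a replicate block and each array left out.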

Additional observations from a re-analysis of the deposited data

How the results depend on the processing

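No member passed the limma threshold under any alternative, and the lowest adjusted p of a member was 0.334, for Tnfsf10. Over all probe sets 1 was called after centring, that of Ltf, and 0 under every other alternative, each array left out included. No member passed 2-fold under any alternative. The median difference of the receptors became -0.0055 with a replicate block, which gives control replicate 3 no weight, so that its estimates equal those without that array. The shared replicate numbers of the titles cover only 2 pairs and do not show that samples were paired, and the block left the count of calls at 0. When any 1 array was left out the medians ran from -0.1883 to 0.0018 for ligands and from -0.0055 to 0.1142 for receptors, the count of members with separate groups from 8 to 24 against 7, which follows from fewer arrays, and the calls and the members past 2-fold stayed at 0. With quantile normalization 5 members were separate and higher and 3 lower, against 2 and 5. The count of members above background was 18, and 23 with the 90th percentile.

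The differences of many members changed sign. Centring gave -0.0275 for Tnfsf13b, -0.0150 for Tnfsf11, -0.0133 for Tnfsf15, -0.0243 for Tnfrsf19 and -0.0054 for Tnfrsf13b. Quantile normalization gave -0.0786 for Tnfsf13b, -0.0531 for Tnfsf11, -0.0469 for Tnf, -0.0288 for Tnfrsf13b and -0.0228 for Fas. The replicate block gave -0.0034 for Tnfsf13b, -0.0083 for Tnfsf15, -0.0777 for Tnf, 0.0373 for Tnfrsf26, -0.0301 for Tnfrsf19, -0.1107 for Tnfrsf1b, -0.0767 for Tnfrsf14, -0.1244 for Tnfrsf1a, -0.0055 for Tnfrsf12a and -0.0567 for Rhbdf2. With 1 array left out 15 of the 36 members kept their sign in every case. Tnfrsf13b was at 0 without tumour-challenged replicate 1, and those that crossed 0 were Cd40lg (-0.76 to 0.20), Fasl (-0.35 to 0.0777), Lta (-0.16 to 0.02), Tnfsf4 (-0.12 to 0.0027), Tnfsf13b (-0.16 to 0.17), Tnfsf15 (-0.0083 to 0.0324), Tnf (-0.19 to 0.28), Tnfsf8 (-0.0311 to 0.18), Tnfsf9 (-0.68 to 0.96), Eda2r (-0.22 to 0.0112), Tnfrsf26 (-0.17 to 0.04), Tnfrsf17 (-0.25 to 0.14), Tnfrsf19 (-0.10 to 0.11), Tnfrsf1b (-0.11 to 0.24), Tnfrsf14 (-0.08 to 0.19), Tnfrsf8 (-0.0117 to 0.14), Fas (-0.0449 to 0.19), Tnfrsf1a (-0.12 to 0.28), Tnfrsf9 (-0.0247 to 0.34), Tnfrsf12a (-0.0055 to 0.37), and outside the family Rhbdf2 (-0.06 to 0.24), S100a8 (-0.25 to 0.10), S100a9 (-0.20 to 0.0367). The cause was not tested.

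Another background correction was not run, since it needs scanner signals. Each member had 1 probe set, so averaging probe sets changed none. The 18 members below background in both groups are limited by signal.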

Other observations

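Family members that share a probe set with another gene could not be assigned to 1 gene, but the shared values are given here. The probe set 6789329, shared by Tnfsf12 (the TWEAK ligand), Tnfsf13 (APRIL, a survival factor of plasma cells) and their joint transcript Tnfsfm13, was at 10.48, 10.19 and 9.59 in controls and at 10.59 and 9.94 after tumour challenge. Control replicate 3 was the lowest array there too, and the groups overlapped. A second probe set of the same 3 genes, 6789331, was at 8.37, 8.13 and 8.08 and at 8.49 and 8.25, also overlapping. The probe set shared by Neil3 and Tnfrsf13c lay below background on all arrays.

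Tnfrsf22 and Tnfrsf23, receptors that in the mouse bind TRAIL and lack a death domain, share 2 probe sets. On probe set 6972415 the controls were at 7.75, 7.80 and 8.18 and the tumour-challenged arrays at 7.51 and 7.26. Both tumour-challenged arrays lay below all controls, with a difference of -0.53 ± 0.17 (SE; unadjusted p = 0.0330 and adjusted p = 0.717 by limma). The other, 6972413, lay at 6.59, 6.71 and 6.91 in controls and at 6.58 and 6.64, with overlapping groups and a difference of -0.13 ± 0.11 (SE). This pair was picked after its values were seen.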
